A study of Mus musculus with 6 samples.

Results

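Heparan sulfate is a sulfated sugar chain carried by proteoglycans at the cell surface and in the matrix. It is built from nucleotide sugars by the EXT polymerases and then modified by N-sulfation, epimerization and O-sulfation, and SULF enzymes outside the cell remove some 6-O-sulfate groups. Fibroblast growth factors bind these chains together with their receptors, and in the mouse the enzymes that make and sulfate them are needed for lacrimal gland budding from the ocular surface epithelium. The genes described here are 10 enzymes of this pathway: Ugdh, Ext1, Ext2, Ndst1, Ndst2, Glce, Hs2st1, Hs6st1, Sulf1 and Sulf2. Of these, 9 were read by 21 of the 45281 probes on the array, and Ndst1 is not analysed here.

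The samples were laser-dissected fornical conjunctival epithelium from mouse embryos at E14.5, in mid-gestation. KO embryos (n = 3) were homozygous for a floxed Fgfr2 allele (Fgfr2 fx/fx) and carried Le-Cre, a transgene that drives Cre recombinase in the ocular surface ectoderm, and WT embryos (n = 3) were wild type, all on a mixed FVB and 129 background. Each embryo gave 1 Illumina bead array, labelled A, B or C within its genotype. The tissue and dissection labels name conjunctival epithelium, while the extraction text speaks of prospective lens, and the tissue labels are followed here. WT embryos are not stated to carry Le-Cre, and effects of Cre and of losing Fgfr2 cannot be told apart.

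Intensities were normalized between arrays and put on a log2 scale, where a step of 1 is a factor of 2, and every difference is KO minus WT. On the KO arrays 34.2% to 34.9% of all probes gave a signal above negative controls (detection p below 0.05), against 48.5% to 50.6% on the WT arrays. The exact permutation test of that gap, KO minus WT -15.0 points, gave a two-sided p = 0.1, the lowest possible with 3 arrays a group. Across tested items, pairs of WT arrays had correlations of 0.94 to 0.96, and pairs of KO arrays only 0.70 to 0.71. A KO array paired with a WT array gave 0.75 to 0.77, so KO arrays resembled each other less than they resembled WT arrays. Of 14 tested epithelial markers, all were detected on at least 1 WT array and 12 on at least 1 KO array, none was called, and 9 differences were negative, with a median of -0.38. The brightest, Cdh1, Esrp1 and Krt5, were detected on all 6 arrays, while Krt18, Krt8, Epcam and Krt15 were lower in KO at an unadjusted p below 0.05, with differences of -2.62, -1.90, -1.60 and -1.22 (limma adjusted p = 0.14, 0.19, 0.065 and 0.12). Summed over 12 tested connective tissue markers, the background-corrected normalized signal was 4152 to 6819 on KO arrays and 517.2 to 599.6 on WT arrays. Of the 12 markers, 6 were called higher in KO. Among these 6, Prrx1 and Ogn passed the detection filter through the KO arrays alone, which favours a positive difference. For 5 tested erythroid markers the sum was 5015 to 5399 in KO and 548.1 to 755.1 in WT, with 3 called higher, the globins Hba-a1, Hbb-b2 and Hbb-y. Of 4 tested lens markers, Cryab was called higher in KO (1.97, adjusted p = 0.029), and Cryaa, Crybb1, Crygc and Foxe3 were detected on no array. Of 9 leukocyte markers on the array 4 were tested, all had negative differences, with a median of -1.34, and none was called. Mrc1, Cx3cr1 and Tyrobp passed the detection filter through the WT arrays alone, which favours a negative difference. The brightest of 4 Fgfr2 probes differed by 0.16 (95% interval -0.52 to 0.84, limma adjusted p = 0.81). Of the dimmer probes, one was 0.86 higher in KO without overlap, one had 0.68 with overlap, and one was undetected on all KO arrays and detected on all WT arrays, with a bound of at least 1.13-fold lower (adjusted p = 0.28, 0.45 and 0.28 over all tested probes). The labels do not say which exons are deleted, so these probes do not check the genotype.

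No enzyme of the set passed the test between genotypes by its brightest probe, and the spread among KO embryos was wide. By brightest probes, values leaned lower in KO for the epimerase Glce and the polymerase subunit Ext2. They leaned higher for the endosulfatase Sulf1 and the precursor enzyme Ugdh. The other tested Ext2 probe went the other way, at 1.27, and Ugdh had -0.14 without scaling between arrays. In the limma fit over 13916 items, 0 of 9 members had an adjusted p below 0.05, where 2.41% of all items did (0.826% higher and 1.59% lower). At an unadjusted p below 0.05 there were 4 of 9, 2 higher and 2 lower, where 19.4% of all items passed (7.51% higher and 11.9% lower). KO and WT values did not overlap for those same 4 of 9 members, against 28.5% of all items: 2 lay higher in KO, as did 11.3% of all items, and 2 lower, as did 17.2%. The median difference of the 9 members was -0.43, beside -0.09 over all tested items, with 3 members positive and 6 negative. Without KO replicate B the members' median was 0.04.

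**Figure D1:**
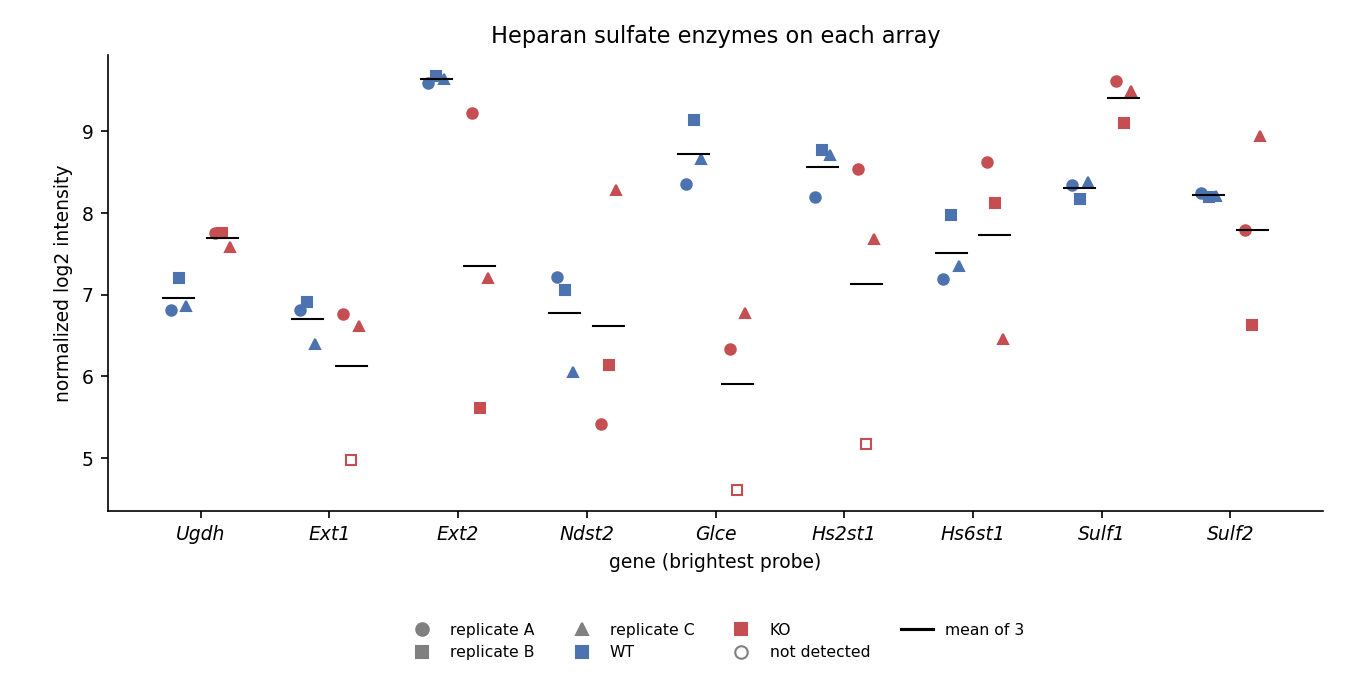
Normalized log2 intensity of the brightest probe of each of the 9 enzymes on each of the 6 arrays, with WT in blue, KO in red and open points where the probe was not detected. Bars are means of 3 arrays, and levels of different genes cannot be compared on this axis. For Ugdh and Sulf1 all KO points lie above all WT points, and for Ext2 and Glce all lie below.

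Ugdh makes UDP-glucuronic acid, a building block of heparan sulfate and of other glycosaminoglycans. Its single probe read 7.76, 7.75 and 7.58 on KO arrays A, B and C and 6.81, 7.21 and 6.86 on WT arrays A, B and C. The KO values were the higher ones with no overlap, and among the 9 enzymes Ugdh was the one with a smaller SD in KO (0.10) than in WT (0.22). The difference was 0.74 (SE 0.27, 95% interval 0.07 to 1.40, limma adjusted p = 0.22). Before normalization the raw Ugdh signal was 214.2 to 260.5 in KO and 245.4 to 280.7 in WT, so the raw values overlapped and were not higher in KO. Without scaling between arrays the difference was -0.14.

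Ext1 and Ext2 form the polymerase complex that lengthens the chain by alternating glucuronic acid and N-acetylglucosamine. Ext1 read 6.77, 4.98 and 6.62 in KO and 6.81, 6.91 and 6.40 in WT. KO replicate B was below detection, while KO replicates A and C lay within the WT range. The Ext1 difference was -0.59 (SE 0.54, limma adjusted p = 0.61), with a 95% interval from -1.90 to 0.73, and it was -0.015 without KO replicate B.

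The brightest Ext2 probe read 9.22, 5.61 and 7.21 in KO and 9.59, 9.68 and 9.65 in WT. WT embryos lay within 0.09 of each other, while the KO embryos spanned more than 3 log2 steps, all below WT. The difference was -2.29 (SE 0.88, 95% interval -4.44 to -0.14, limma adjusted p = 0.23), and the adjusted p was 0.046 without KO replicate A, where the difference was -3.23. A second, dimmer Ext2 probe against the same RefSeq transcript went the other way. It read 5.11, 7.59 and 6.29 in KO and 5.30, 5.29 and 4.58 in WT, a difference of 1.27 (SE 0.66, adjusted p = 0.37 over all tested probes). With both tested probes averaged the Ext2 difference was -0.51 (limma adjusted p = 0.40). The order of the KO embryos was reversed between these probes: A was highest on the bright probe and lowest on the dim one.

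Ndst2 is an N-deacetylase and N-sulfotransferase, the class of enzymes that starts sulfation of the chain, and it is best known for heparin synthesis in mast cells. It read 5.42, 6.14 and 8.28 in KO and 7.21, 7.06 and 6.06 in WT. KO values reached both above and below the WT range. The difference was -0.16 (SE 0.80, 95% interval -2.10 to 1.77, limma adjusted p = 0.94). This interval includes a change of more than 3-fold in either direction.

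Glce turns glucuronic acid residues of the N-sulfated chain into iduronic acid, and its brightest probe had the most negative difference of the 9 enzymes. Its brightest probe read 6.34, 4.61 and 6.78 in KO and 8.35, 9.14 and 8.67 in WT. Every KO value was below every WT value by at least 1.57, and KO replicate B was not detected. The raw signals were 130, 106 and 147 in KO and 485, 733 and 610 in WT, with bead standard errors of 3.93 to 4.89 and 22.5 to 33.0. The difference was -2.81 (SE 0.62, 95% interval -4.32 to -1.30, limma adjusted p = 0.085), and without KO replicate B it was -2.16 with an adjusted p = 0.049.

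A second Glce probe passed the test over all tested probes, where 2.06% of 20853 probes did and 1.43% were called lower. It read 4.44, 4.29 and 4.37 in KO, below detection on all 3 arrays, and 5.96, 6.28 and 6.65 in WT, detected on all 3. Because the KO values are at background the size is a bound: the probe was at least 1.88-fold lower in KO (limma adjusted p = 0.042, fitted difference -1.93). This bound sets the WT mean against the mean, over KO arrays, of the lowest detected signal or the probe's own signal, whichever was higher. The remaining Glce probe was also undetected in KO and dim in WT, at 5.03, 4.81 and 4.79, and gave a difference of -0.41 (SE 0.31, adjusted p = 0.54). All 3 probes had non-overlapping groups with KO lower, where 27.6% of tested probes did not overlap in either direction. Both dimmer probes passed the detection filter through the WT arrays alone. The call on the second probe was lost without any 1 of KO replicates A, B and C (adjusted p = 0.051, 0.055 and 0.054) and WT replicates A, B and C (0.19, 0.18 and 0.21), while the difference stayed between -2.10 and -1.76.

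**Figure D2:**
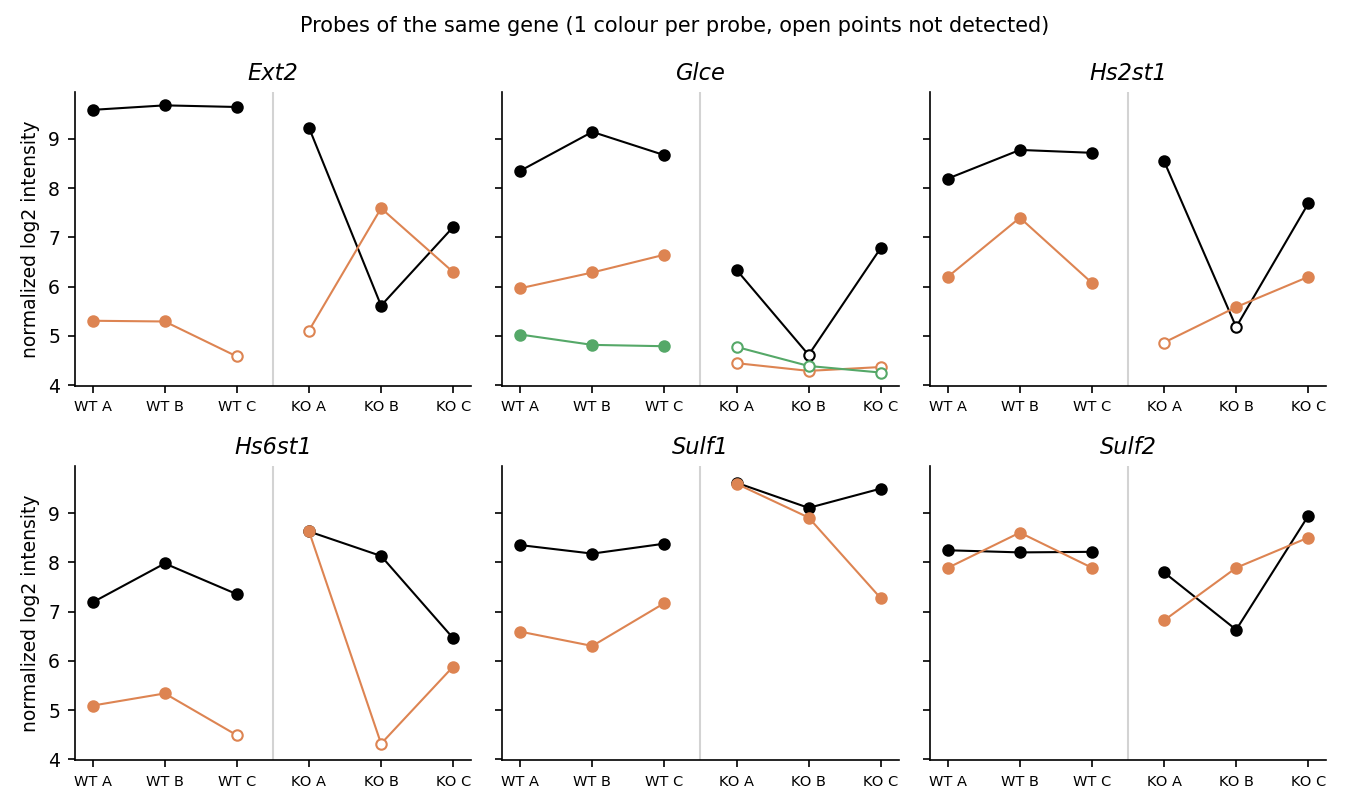
Normalized log2 intensity on each array for the 6 enzymes with more than 1 tested probe, 1 colour per probe and open points where it was not detected; lines join arrays only to guide the eye. The 3 Glce probes are all lower on KO arrays, while the 2 Ext2 probes cross among the KO arrays.

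Hs2st1 adds sulfate to the 2-O position of iduronic acid, and Hs6st1 to the 6-O position of glucosamine. Hs2st1 read 8.54, 5.18 and 7.69 in KO and 8.19, 8.77 and 8.71 in WT. KO replicate A lay within the WT range, C below it and B below detection. The difference was -1.42 (SE 0.87, 95% interval -3.54 to 0.69, limma adjusted p = 0.43), and it was -0.44 without KO replicate B. A dimmer Hs2st1 probe had the same sign, at -1.01 (SE 0.53, adjusted p = 0.38 over all tested probes).

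Hs6st1 read 8.63, 8.13 and 6.46 in KO and 7.19, 7.98 and 7.35 in WT. KO replicates A and B were above the WT range and C below it. The difference was 0.23 (SE 0.62, 95% interval -1.27 to 1.74, limma adjusted p = 0.88), and it was -0.21 without KO replicate A. A second Hs6st1 probe, dim in WT, read 8.63, 4.32 and 5.88 in KO and 5.09, 5.34 and 4.49 in WT, and the difference was 1.30 (SE 1.06, adjusted p = 0.57).

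Sulf1 and Sulf2 are secreted endosulfatases that remove 6-O-sulfate groups from finished chains, an edit known to weaken FGF signalling. Sulf1 read 9.62, 9.10 and 9.50 in KO and 8.35, 8.18 and 8.38 in WT. Every KO value exceeded every WT value, and the raw signal was also higher, at 572.3 to 745.4 in KO and 434.1 to 523.5 in WT. The difference was 1.10 (SE 0.28, 95% interval 0.41 to 1.80, limma adjusted p = 0.12). A second Sulf1 probe read 9.59, 8.91 and 7.27 in KO and 6.59, 6.30 and 7.17 in WT. Its groups did not overlap either, though KO replicate C lay just above WT replicate C, and the difference was 1.90 (SE 0.65, adjusted p = 0.20 over all tested probes). In the same KO arrays the connective tissue markers given above were higher, with Col3a1 at 2.60 and Col1a2 at 2.84 (adjusted p = 0.022 and 0.015). Their part in the Sulf1 values was not tested. In dissected tissue, fewer cells of a type and less RNA per cell cannot be told apart.

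Sulf2 read 7.79, 6.63 and 8.94 in KO and 8.24, 8.20 and 8.21 in WT. The WT embryos were nearly identical, and the KO embryos lay on both sides of them. The difference was -0.43 (SE 0.60, 95% interval -1.88 to 1.02, limma adjusted p = 0.74), and it was 0.15 without KO replicate B. The other Sulf2 probe gave -0.39 (SE 0.51, adjusted p = 0.75). The Sulf1 difference exceeded that of Sulf2 by 1.53 when their log2 difference was taken within each array, 1.82, 2.47 and 0.55 in KO against 0.11, -0.02 and 0.17 in WT. An exact permutation test gave a two-sided p = 0.1, again the lowest possible with 3 arrays a group, and this pair was chosen after its values were seen.

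**Figure D3:**
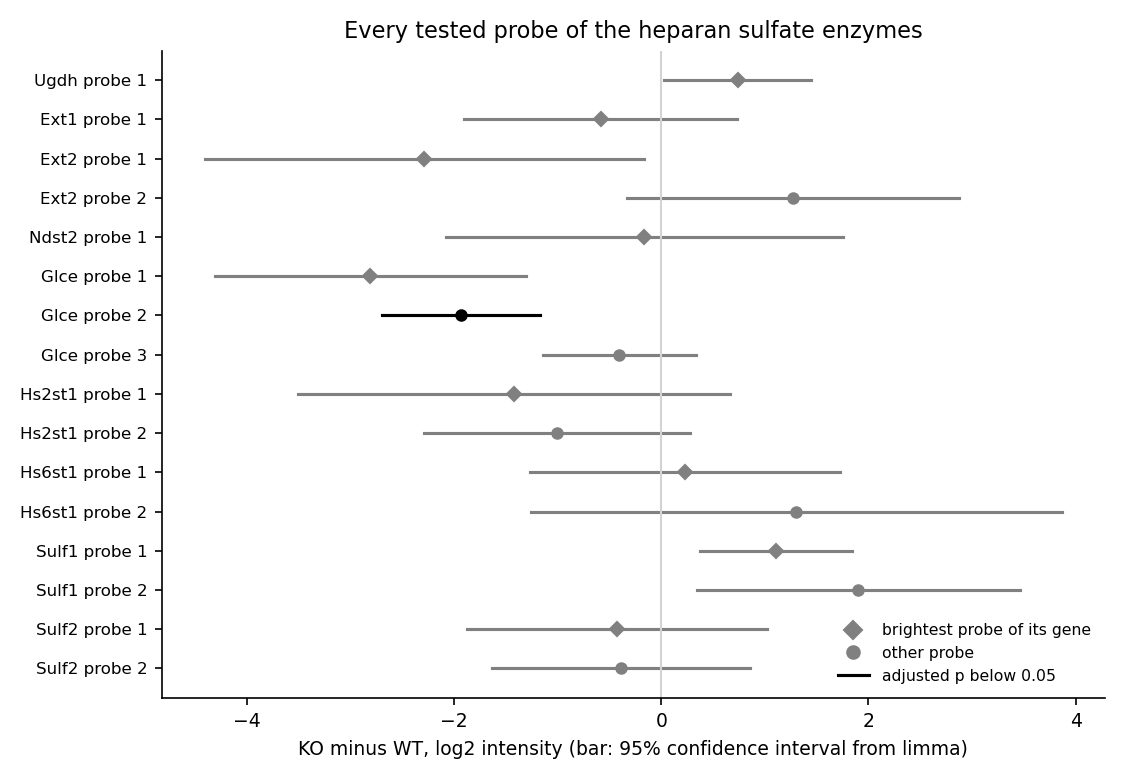
KO minus WT difference in log2 intensity for the 16 tested probes of the 9 enzymes, with 95% confidence intervals from limma and diamonds for the brightest probe of each gene. The second Glce probe is the one with an adjusted p below 0.05, drawn in black at -1.93, and both Sulf1 intervals lie above 0.

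Of the 21 probes, 16 passed the detection filter of at least 3 of 6 arrays. All 16 were designed against RefSeq transcripts, and the 5 that did not pass, 2 for Ext2 and 3 for Sulf1, were designed against GenBank cDNA entries. None of those 5 was detected on a KO array, and each was detected on at most 1 WT array. Among the 6 enzymes with more than 1 tested probe, the probes shared a sign for Glce, Hs2st1, Hs6st1, Sulf1 and Sulf2 but not for Ext2. Both dimmer Glce probes passed the filter through the WT arrays alone, which favours a shared negative sign.

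Most of the 9 enzymes, like most items on the array, varied more among KO than among WT embryos. The SD of the brightest probe was 0.10 to 1.81 in KO, with a median of 1.15, and 0.02 to 0.63 in WT, with a median of 0.27. The KO SD was the larger for 8 of 9 members, as it was for 83.0% of all tested items, whose median SDs were 0.80 and 0.30. By brightest probes, KO replicate B was lowest of the KO arrays for 6 of 9 members (Ext1, Ext2, Glce, Hs2st1, Sulf1 and Sulf2). It was lowest for 32.8% of all items. KO replicate A was the highest for 6 of 9, against 33.4% of all items. Other tested probes gave other orders. There KO replicate B was the highest for Ext2 and not the lowest for Hs2st1, Sulf1 and Sulf2. It was the lowest on the second Glce probe and not on the remaining one, both undetected in KO. On the other tested probes KO replicate A was the lowest for Ext2 and Hs2st1 and the highest for Hs6st1 and Sulf1.

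Of 47 other heparan sulfate genes listed, 44 were on the array as analysed here and 30 were tested. Among these 0 rose, 2 fell and 28 did not pass, where 2.41% of all items were called and 1.59% were called lower. Their median difference was -0.32, beside -0.09 over all tested items. The genes that fell were Papss2, which makes the sulfate donor PAPS, and Sgsh, a lysosomal sulfatase that acts in heparan sulfate breakdown.

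Papss2 read 4.30, 4.30 and 5.89 in KO and 8.25, 7.89 and 8.66 in WT on its brightest probe. It was detected on KO replicate C alone, with the other KO arrays at background, and the fitted difference was -3.44 (SE 0.53, limma adjusted p = 0.035). A second Papss2 probe had -0.77 (adjusted p = 0.43 over all tested probes), and the remaining one was undetected on every array. The call was lost with the probes averaged (-2.10, adjusted p = 0.085) and with a trended, robust variance model (adjusted p = 0.051). It was also lost without KO replicate A or B (adjusted p = 0.055 and 0.056) and without WT replicate A, B or C (0.18, 0.15 and 0.17). Papss1, the related PAPS synthase, was named after its value was seen and stood at -0.55 (adjusted p = 0.77).

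Sgsh read 4.39, 4.46 and 5.66 in KO and 8.75, 8.79 and 8.52 in WT, again detected on KO replicate C alone, with a fitted difference of -3.85 (SE 0.42, limma adjusted p = 0.016). Its other probes disagreed. One was undetected on all KO arrays, with a bound of at least 1.28-fold lower (fitted difference -0.996, adjusted p = 0.33 over all tested probes). That probe passed the detection filter through the WT arrays alone, which favours a negative difference. Another had 0.43 (adjusted p = 0.73). With probes averaged the difference was -1.47 (adjusted p = 0.10), and without WT replicate A, B or C the adjusted p was 0.11, 0.11 and 0.10. All 6 tested genes of heparan sulfate breakdown had negative differences, with a median of -1.83, as did 7560 of all 13916 items. The lysosomal enzymes Gusb, at -3.24 (adjusted p = 0.11), and Hgsnat, at -2.59 (adjusted p = 0.30), did not pass, and nor did Naglu, Idua and Ids, at -1.08, -0.83 and -0.18. Gusb was called without KO replicate C (-4.10, adjusted p = 0.029) and with median or no scaling (adjusted p = 0.046 and 0.023). With its probes averaged Gusb had -1.15 (adjusted p = 0.28). Hgsnat was called without KO replicate A (-3.91, adjusted p = 0.041). Fewer probes of any kind were detected on the KO arrays, as given above, and the part of this in the Glce, Papss2 and Sgsh values was not tested.

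Among the remaining sulfotransferases, Hs3st1, a 3-O-sulfotransferase, was undetected on all KO arrays, with a bound of at least 1.15-fold lower (limma adjusted p = 0.13). Hs3st1 passed the detection filter through the WT arrays alone, which favours a negative difference. It was called lower without scaling (adjusted p = 0.027). Hs6st2 had a difference of -1.77 (adjusted p = 0.25; -2.55 and 0.032 without KO replicate B) and Hs3st3b1 of 0.32 (adjusted p = 0.77). Ndst3, Ndst4 and Hs6st3 were on the array but below the detection filter. Of the nucleotide sugar enzymes, Ugp2, which makes UDP-glucose one step before Ugdh, had a difference of 0.96 with no overlap between groups (adjusted p = 0.16). Gfpt1, which starts the hexosamine pathway, had -1.81 (adjusted p = 0.20), and -0.42 with its probes averaged (adjusted p = 0.54).

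None of the 5 tested genes for the linkage region that joins the chain to its core protein passed, with values of -1.56 for the phosphatase Pxylp1, 1.24 for the galactosyltransferase B3galt6 and -0.46 for the xylosyltransferase Xylt2 (adjusted p = 0.58, 0.59 and 0.66). Pxylp1 was called lower without KO replicate B (-3.15, adjusted p = 0.033) and had -0.52 without KO replicate C, and B3galt6 had 2.42 without KO replicate A and 0.28 without KO replicate B. Of the EXT-like enzymes, Extl3 was close to level at 0.02 (95% interval -0.76 to 0.80) and Extl2 had -2.22 (95% interval -4.74 to 0.29, adjusted p = 0.31).

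Chondroitin and dermatan sulfate chains share precursors and the linkage region with heparan sulfate. Of 9 tested genes of their synthesis, 0 passed in limma, where 2.41% of all items did. The median difference was 0.07, beside -0.09 over all tested items. At an unadjusted p below 0.05, 1 gene of the 9 was lower, as were 11.9% of all items. That gene was the chondroitin sulfotransferase Chst11, at -2.36 (adjusted p = 0.18), which was called without KO replicate C (-3.22, adjusted p = 0.037) and without scaling (adjusted p = 0.032), while Chst15 had -0.92 and Chst14 had 0.31 (adjusted p = 0.46 and 0.75). The dermatan epimerases Dse and Dsel had 1.01 and 0.07 (adjusted p = 0.35 and 0.93), and the chain enzymes Chpf, Chsy1 and Chpf2 had 0.65, -0.52 and 0.10 (adjusted p = 0.42, 0.64 and 0.93). Chsy1 was called lower without scaling (-1.56, adjusted p = 0.046).

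Has2, a synthase of hyaluronan, which is an unsulfated chain made from the same UDP-glucuronic acid, fell. It read 5.41, 6.43 and 6.41 in KO and 9.50, 10.00 and 9.73 in WT, detected on every array. Every KO embryo was more than 3 log2 steps below every WT embryo, and the difference was -3.66 (SE 0.39, limma adjusted p = 0.015). It was the one tested hyaluronan synthase. The call was lost without WT replicate A, B or C (adjusted p = 0.11, 0.10 and 0.10), with differences of -3.78 to -3.53. The size of the difference moved with the processing, to -2.58 without background correction and -4.64 without scaling, and Has2 was called in both.

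**Figure D4:**
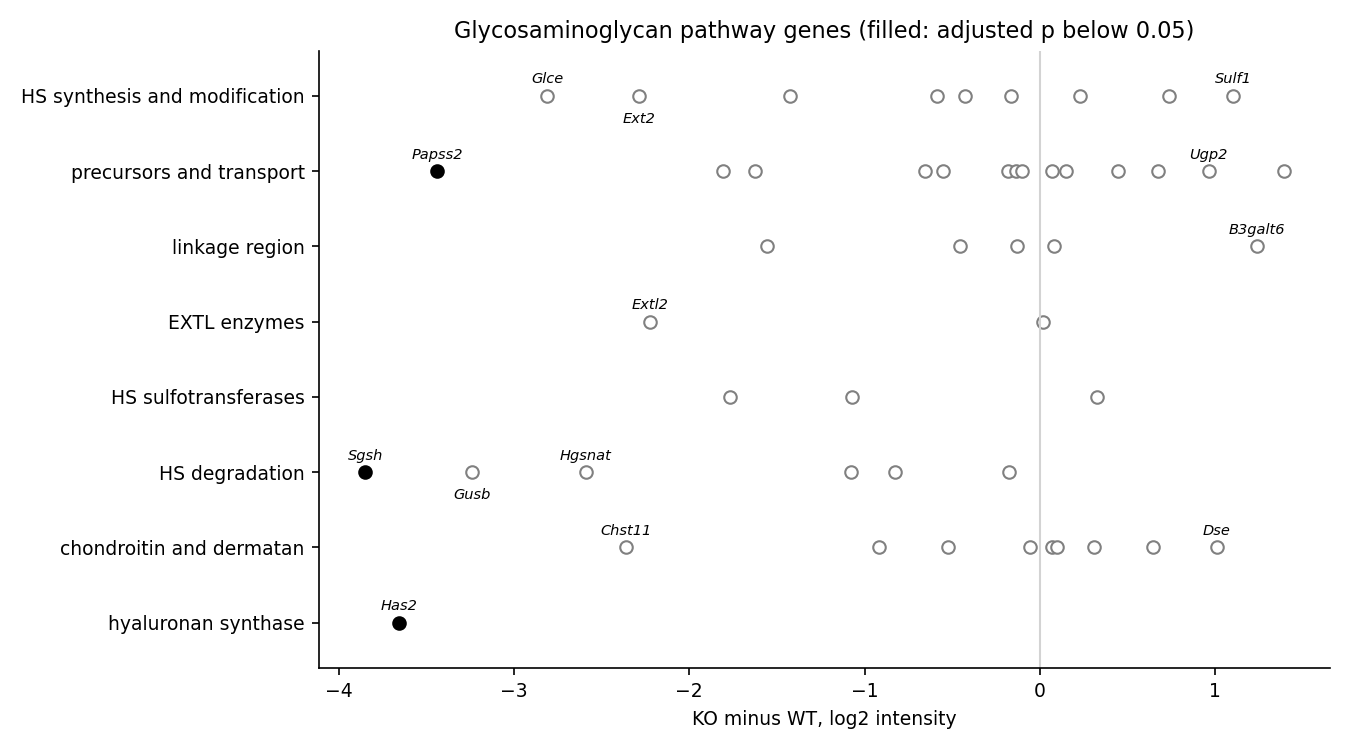
KO minus WT difference in log2 intensity of each tested gene, by its role in heparan sulfate (HS), chondroitin or hyaluronan metabolism, filled where the limma adjusted p is below 0.05. Papss2, Sgsh and Has2 are the filled points, between -3.85 and -3.44, and the 9 enzymes of the top row span -2.81 to 1.10.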

How the data were processed

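Per the labels' protocols, total RNA (15 ng per embryo) was taken from 10 µm sections, amplified to cDNA and biotinylated. The authors' deposited scanner table holds an average bead intensity per probe, neither background-subtracted nor normalized between arrays, with bead counts, bead standard errors and a detection p-value, per the file headers. GenomeStudio was used, per the submitters' processing notes; no version or setting was given in the sources used here. The authors' deposited processed intensity values served as an alternative.

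Intensities were normalized with neqc (offset 16, log2) in limma 3.58.1 under R 4.3.3, with background inferred from detection p-values. The 20853 probes kept were detected (p below 0.05) on 3 or more of the 6 arrays. Each gene was read by its brightest probe on average, giving 13916 items, and limma's lmFit and eBayes compared KO with WT with Benjamini-Hochberg adjustment over all items. A separate fit kept all 20853 probes. The files name no genome build, so no coordinates are given. Probe symbols came from the platform annotation: 34885 probes had 1 symbol, 18 several and 10378 none.

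Members and gene lists were chosen with earlier results of these data known. All members were named, with every called pathway gene and up to 3 genes with the smallest p per role. The fit was tested on simulated data in which the noise of both genotypes followed the WT spread. That test therefore does not cover the wider spread among KO arrays. The limma p-values set each difference against the variation between embryos, pooled over KO and WT. With 1 array per embryo this variation mixes biological and technical differences, and the number of arrays limits the precision. Alternatives changed the background correction, the scaling, the detection filter, how probes were combined, the variance model, array weights and the threshold, added a replicate block, or left out 1 replicate. Figures used matplotlib 3.10.9 under Python 3.11.15.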

Additional observations from a re-analysis of the deposited data

How the results depend on the processing

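The count of members called, 0 of 9, was 1 in these settings: Glce lower with no background correction, median scaling, no scaling, an adjusted p below 0.10 and without KO replicate B; Ext2 lower without KO replicate A; and Sulf1 higher without a filter. It ran from 0 to 1 with each replicate left out. The members' median of -0.43 moved to 0.48 with detection p below 0.01 on all 6 arrays, where 4 members were left, and ran from -0.997 to 0.036 with each replicate left out. The median of all items was -0.09, and -0.49 with median scaling, -0.81 without scaling and 0.09 with cyclic loess; the members' median minus that of all items was -0.34, -0.47, -0.47 and -0.29 in these settings. The causes were not tested. The number of called items, 336 (115 higher, 221 lower; 65.8% lower), became 1068 with median scaling (90.2% lower), 2068 without scaling (95.8% lower), 660 without a filter, 189 with the stricter detection filter, 140 with detection on at least 2 KO arrays, 185 with array weights and 764 at an adjusted p below 0.10, while cyclic loess gave 245 (51.8% lower). Counts ran from 12 to 563 with each replicate left out, lowest without a WT replicate (12, 19 and 28 without A, B and C). The number of called probes, 429, became 889 without a filter and 225 with the stricter filter, and ran from 0 to 682 with each replicate left out. Genotypes share replicate letters A, B and C, and deviations of same-lettered arrays correlated at -0.03 to 0.00. With 3 arrays a group this cannot settle whether the letters pair embryos, and the main fit did not treat them as pairs. With the letter as a replicate block limma called 0 items and 0 probes. In this balanced design the block cannot change a difference, so the members' signs under it are no check. The detection gap of 15.0 points was -12.9 at a detection p below 0.01.

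Signs turned for several genes; of these Sgsh alone was past the threshold as reported. Among members, Ugdh had -0.14 without scaling, Hs6st1 -0.29 with median scaling and -0.61 without scaling, and Ndst2 0.017 without background correction and 0.010 with cyclic loess. Among other genes, median scaling gave -0.17 for Chpf, -0.10 for Chpf2, -0.43 for Dsel, -0.38 for Chst14 and -0.13 for Extl3. No scaling gave -0.49 for Chpf, -0.42 for Chpf2, -0.0084 for Dse, -0.75 for Dsel, -0.70 for Chst14, -0.44 for Extl3 and -0.20 for Hs3st3b1. Cyclic loess gave -0.029 for Chpf2, and averaged probes gave -0.48 for Chst14 and -0.080 for Extl3. Sgsh had 0.43 with detection on at least 2 KO arrays, where another of its probes was the brightest left. With each replicate left out, the values that turned sign ran from -0.997 to 0.434 for Ndst2, -0.213 to 0.871 for Hs6st1, -1.01 to 0.150 for Sulf2, -0.335 to 0.319 for Chpf2, -0.099 to 0.234 for Dsel, -0.114 to 0.229 for Extl3 and -0.022 to 0.814 for Hs3st3b1.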
